A study of Homo sapiens with 4 samples.

Results

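The CEBP family and the factors that work with it in myeloid cells are 8 genes here, of 20037 protein-coding genes examined: CEBPA, CEBPB, CEBPD, CEBPE, CEBPG, SPI1, GFI1 and GFI1B. They were chosen by name, with no measured value in the rule, at a time when earlier results of these data were known. Each was followed by its H3K27Ac peaks over the gene with 5 kb on both sides and over the gene with 100 kb on both sides. H3K27Ac is an acetyl mark on histone H3 that lies over active promoters and enhancers. It was mapped by ChIPmentation, an immunoprecipitation in which a transposase tags the bound chromatin, in MOLM13, a human AML cell line with a rearranged MLL1 gene (MLL1-r). The H3K27Ac set holds 1 control library, whose label gives no treatment while the treatment protocol describes a DMSO arm, and 1 library of cells exposed to 500 nM of the Menin inhibitor SNDX-50469 for 16 h. Input libraries of both conditions were not analysed here. With 1 library a condition no difference has a replicate check, so values and counts are given without a test.

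The CEBP proteins are basic leucine zipper factors that bind DNA as dimers, with themselves or with each other. CEBPA is needed for progenitors to enter the granulocyte lineage, CEBPE acts later and switches on genes of granule proteins, CEBPB takes over when granulocytes are made in an emergency, and CEBPD is induced with it by cytokines. CEBPG lacks a classical activation domain and serves as a dimer partner. SPI1 encodes PU.1, the ETS factor that sets up myeloid enhancers together with CEBP proteins. GFI1 and its relative GFI1B are zinc finger repressors that recruit LSD1 and histone deacetylases, GFI1 in granulocyte progenitors and GFI1B in erythroid cells and megakaryocytes. Distal enhancers are known downstream of CEBPA and upstream of SPI1, and these regions were therefore examined on their own.

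The lists as deposited differed in size. The control list held 245875 broad peaks over 224 Mb and the SNDX-50469 list 54061 peaks over 29.4 Mb, and of the control covered length 9.71% was also covered after treatment. This share of control covered length found again after treatment is called the kept share below. The weakest peak of the control list had a fold over its own background of 2.66 and that of the SNDX-50469 list 3.46, so a region had to stand out further to enter the SNDX-50469 list. Read totals are not in the lists, and the depth of the libraries is unknown. On chromosome 8, which carries CEBPD, the treated covered length was 39.6% of control, against 9.91% on all other chromosomes together. As a check of the label, a control peak lay within 5 kb of the 5′ end of 8 of 8 myeloid, 4 of 5 B-cell and 4 of 5 T-cell markers, against 67.3% of all genes with a known strand. The B-cell and T-cell counts are near that share, so the count of peaks does not tell these lists from other genes. Summed control covered lengths were 62402 bp over the 8 myeloid markers, 15530 bp over the 5 B-cell and 9951 bp over the 5 T-cell markers, and no peak was listed there for PAX5 or TRAT1. Gene by gene the lists overlapped. The largest B-cell and T-cell values were 8792 bp at CD79A and 7681 bp at CD3D. Myeloid values ran from 5966 bp at CD33 to 10001 bp at FLT3 and MPO. A peak is not expression, and loss of the mark in every cell and loss in some of the cells cannot be told apart in these libraries.

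H3K27Ac covered less of the sequence at every one of the 8 genes in the SNDX-50469 library, but 7 of them still had peaks. Over the genes with 5 kb, CEBPA went from 12601 bp in control to 8584 bp after treatment, and CEBPD from 8649 to 5650 bp. These are the smallest relative losses among the 8. GFI1 went from 22505 to 10362 bp and SPI1 from 28244 to 11032 bp. The covered length of CEBPE went from 7451 to 2634 bp, that of CEBPG from 15730 to 4971 bp and that of CEBPB from 9975 to 2229 bp. GFI1B had 1147 bp in control and none after treatment. Covered length was lower at 8 of 8 genes, where 98.1% of the 15634 genes that had one or more control peaks were lower as well, so the direction is that of nearly all genes. Some control covered length was kept at 7 of 8, against 55.2% of the genes with a control peak. A control peak was present at 8 of 8, against 78% of all genes, and a peak after treatment at 7 of 8, against 52.1% of all genes.

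**Figure D1:**
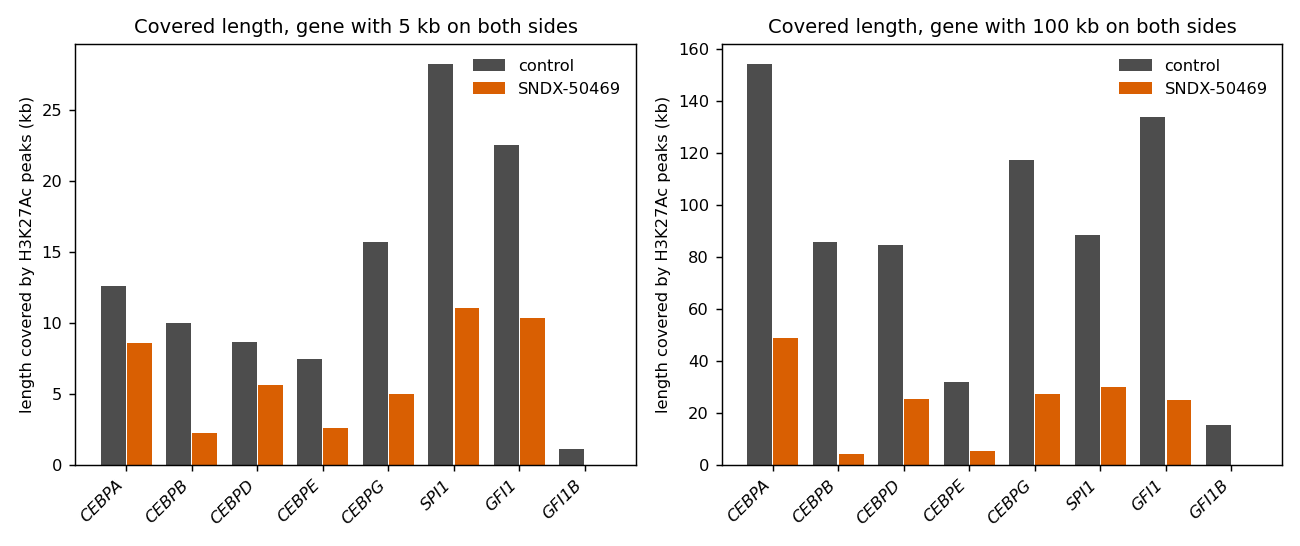
Length covered by H3K27Ac peaks (kb) in the control library (grey) and the SNDX-50469 library (orange), 1 library each, over each gene with 5 kb (left) and 100 kb (right) on both sides. The orange bar is lower than the grey bar at every gene, and GFI1B has no orange bar.

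Summed over the 8 genes with 5 kb, 106302 bp were covered in control, and 42.2% of this length was kept. Of the 36 control peaks there, 21 shared at least 1 bp with the SNDX-50469 list, which is 58.3% (Wilson 95% interval 42.2 to 72.9%). Neighbouring peaks are not independent, and the interval covers counting error only. The 8 genes had a median kept share of 37.2%, and all genes with control cover one of 2.37%, with an upper quartile of 15.3%. Much of this gap goes with how fully a gene was covered to begin with. Among the 750 genes with 75 to 100% of their window covered in control the median kept share was 23.4%, with quartiles of 11.2 and 41.0%, and 6 of the 8 genes fall in this class. Within it CEBPA at 68.1%, CEBPD at 59.6% and GFI1 at 46.0% lay above the upper quartile. SPI1 at 39.1% and CEBPG at 30.7% lay between the median and the upper quartile, and CEBPB at 22.3% lay below the median. CEBPE at 35.4% lay above the upper quartile of 23.4% of the 1463 genes covered over 50 to 75% of their window.

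**Figure D2:**
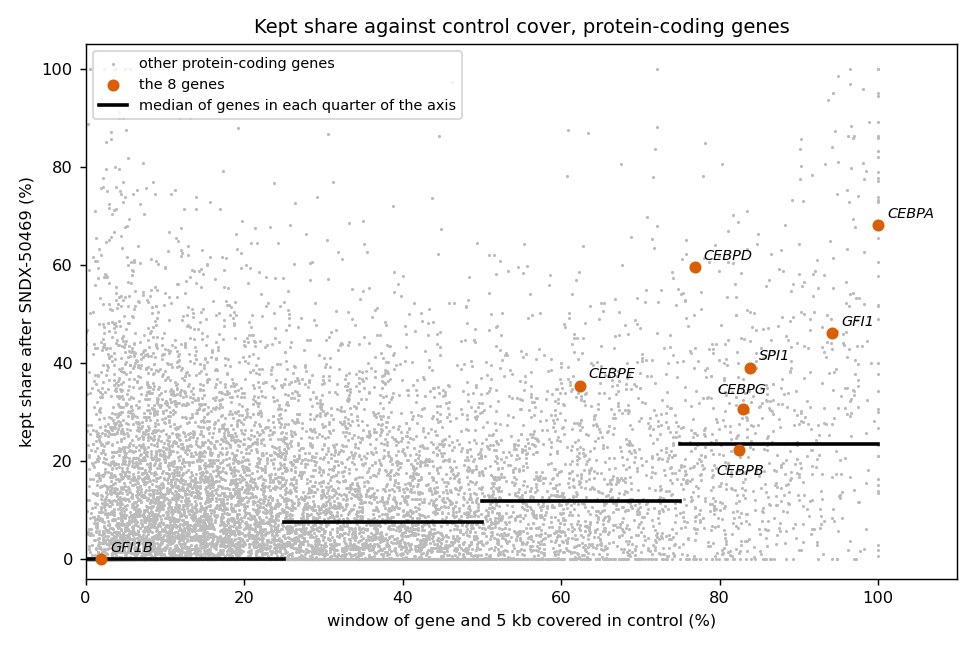
Kept share after SNDX-50469 (%) against the part of the gene window with 5 kb on both sides covered in control (%), 1 grey point for each protein-coding gene with a control peak, the 8 genes in orange, and the median of the genes in each class of control cover as black bars. CEBPA, CEBPD, CEBPE and GFI1 stand clearly above the black bar of their class, CEBPB just under it, and GFI1B at 0.

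The size of these shares depended on the threshold put on the lists, and the values for all genes moved with it. When the cutoff of the SNDX-50469 list was also put on the control list, the 8 genes kept 46.3% and the genome 15.5%. With the control list trimmed to the covered length of the SNDX-50469 list, the values were 60.2 and 38.9%, and with a −log10 q of at least 5 asked of both lists they were 32.8 and 6.47%. On these summed shares the gap to the genome was smaller with the trimmed list than as deposited, where the values were 42.2 and 9.71%. The median over all genes with control cover, 2.37% as deposited, was 9.80% with the common cutoff, 46.9% with the trimmed control list and 0% with the stricter q. With the trimmed list this median was over 3447 genes. CEBPE and GFI1B had no control peak left there, and the other members kept from 31.5% at CEBPB to 70.0% at CEBPG. Single genes moved too. CEBPG kept 47.5% with the common cutoff, 49.7% with the stricter q and 70.0% with the trimmed list, and SPI1 kept 66.9% with the trimmed list.

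CEBPA (gene 1050, chr19:33299934-33302534, minus strand, GRCh38) lay inside a single control peak of 57889 bp, chr19:33250086-33307974, which ran from -5.44 to 52.4 kb around its 5′ end (negative values are upstream). This peak had a fold of 11.8 and was number 87 of 245875 in its list. After treatment the same stretch was broken into 19 peaks that covered 40233 bp, or 69.5% of it, with no gap longer than 2318 bp. The broadest of these pieces, chr19:33264267-33275805, was 11539 bp long, lay 26.7 to 38.3 kb downstream of the 5′ end and had a fold of 6.68, number 364 of 54061 in its list. The next pieces downstream were 4899 bp long at 38.7 to 43.6 kb, with a fold of 6.02, and 4692 bp long at 45.4 to 50.1 kb, with a fold of 5.21. Within the former control peak the strongest treated peaks, with folds of 6.68 and 6.02, therefore lay in the distal downstream region and not over the gene. The next in fold, with 5.32, lay 4.58 to 9.96 kb downstream of the 5′ end, ahead of the piece with 5.21. The 4 treated peaks in the window with 5 kb had a fold of at most 5.32, and with a −log10 q of at least 5 asked of both lists CEBPA kept 0%, since none of them passed.

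The 5′ end of CEBPA itself fell in a gap. Treated peaks stopped at position 33302400 and resumed at 33303006, so the 250 bases before the transcript start, covered over all 250 in control, were covered over 0 after treatment. The sequence (chr19:33302535-33302784, minus strand, RefSeq, GRCh38.p14) is shown because this gap runs through it, with the letters TATAAA of a TATA box in capitals.
CEBPA promoter: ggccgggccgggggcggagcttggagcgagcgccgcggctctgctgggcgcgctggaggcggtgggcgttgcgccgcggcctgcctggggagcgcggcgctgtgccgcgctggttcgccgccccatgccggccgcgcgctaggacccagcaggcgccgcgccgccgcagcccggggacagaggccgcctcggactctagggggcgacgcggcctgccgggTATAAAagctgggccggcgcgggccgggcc
It is 81.2% G and C and holds 41 CpG. The letters TATAAA, searched on both strands, are in 9.47% of 22199 RefSeq promoter windows of 300 bases. A match to such letters is a description of the sequence and not a binding site. Of the 10953 promoter windows with a control peak, 43.1% also had a peak after treatment, so a window without one was the commoner outcome.

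Over 100 kb on both sides, CEBPA had 49 control peaks over 154070 bp and 39 treated peaks over 48704 bp, and kept 31.4%. The sides differed in this. Downstream, beyond 5 kb from the 5′ end, 73342 bp were covered in control and 48.3% was kept. Upstream 70727 bp were covered and 9.85% was kept. The upstream control peak at chr19:33328069-33339795, with 11727 bp, was covered over 10.8% after treatment. Protein-coding neighbours within the 100 kb are LRP3, SLC7A10, CEBPG and PEPD.

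**Figure D3:**
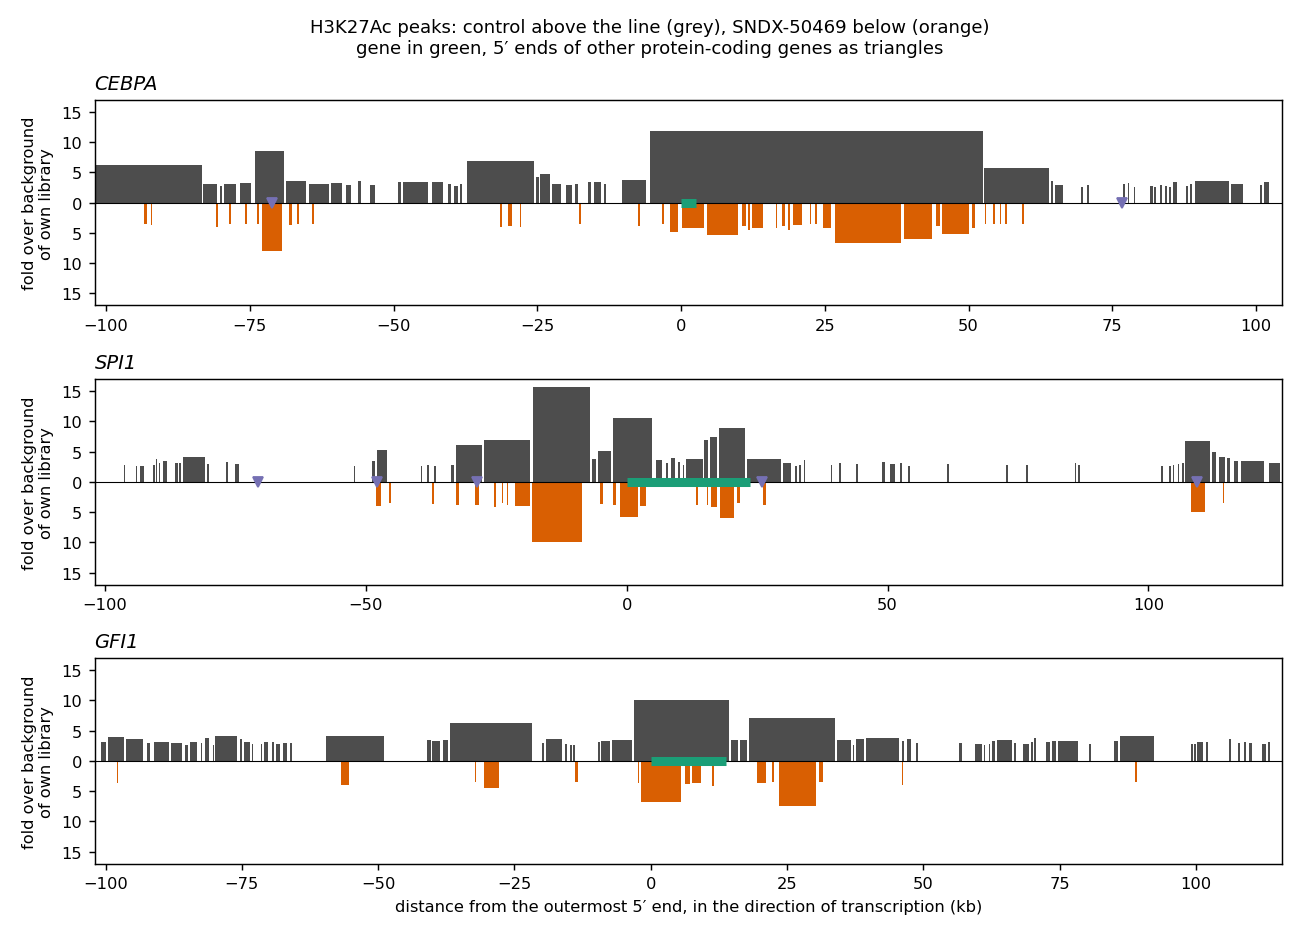
H3K27Ac peaks within 100 kb of CEBPA, SPI1 and GFI1, by distance from the outermost 5′ end in the direction of transcription (kb), with the height of each peak as its fold over the background of its own library, control upwards in grey and SNDX-50469 downwards in orange. The gene is a green bar and 5′ ends of other protein-coding genes are triangles. Heights are not on a common scale between the libraries. Orange peaks fill much of the broad CEBPA control peak downstream and the peak upstream of SPI1.

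CEBPG (gene 1054, chr19:33373709-33382686, plus strand), the dimer partner without an activation domain, is the upstream neighbour of CEBPA, and the 100 kb windows of both genes overlap. Its promoter peak in control, chr19:33371540-33376694, was number 666 in its list with a fold of 8.62, and 70.0% of its 5155 bp was covered after treatment. The treated peak there, chr19:33371974-33375410, had a fold of 8.07 and was number 103, the highest treated fold anywhere in the CEBPA window. Within 5 kb of the 5′ end CEBPG kept 51.0% of 9063 bp. The rest of its body kept 4.08% of 2596 bp, and the downstream side kept 722 of 31402 bp. There the control peak at chr19:33385929-33406905, 20977 bp long, had 629 bp covered after treatment. The kept cover of CEBPG was thus concentrated around its promoter, and its upstream share of 29.0% includes part of the CEBPA domain.

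CEBPB (gene 1051, chr20:50190583-50192690, plus strand) had a control peak of 7174 bp, chr20:50190621-50197794, with a fold of 7.78, number 1239 in its list. After treatment 31.1% of it was covered, mainly by the peak chr20:50190797-50192926, with a fold of 6.03, number 645. This peak lies over the single-exon gene, so that 91.5% of the control cover of the body was kept, against 28.3% within 5 kb of the 5′ end. Further out little was left. The upstream side kept 7.07% of 25463 bp, and the downstream side kept none of 52429 bp. Over 100 kb CEBPB went from 60 peaks and 85760 bp to 7 peaks and 4132 bp and kept 4.70%, below the median of 6.76% over all genes. The upstream control peak chr20:50145347-50151509 was covered over 8.58% and the one at chr20:50110201-50114757 over 27.9%.

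The 250 bases before the outermost CEBPB transcript start (chr20:50190333-50190582, plus strand, RefSeq, GRCh38.p14) were covered in neither library, since they lie in a gap between control peaks, just before the peak over the gene. They are shown because the kept mark begins after them.
CEBPB promoter: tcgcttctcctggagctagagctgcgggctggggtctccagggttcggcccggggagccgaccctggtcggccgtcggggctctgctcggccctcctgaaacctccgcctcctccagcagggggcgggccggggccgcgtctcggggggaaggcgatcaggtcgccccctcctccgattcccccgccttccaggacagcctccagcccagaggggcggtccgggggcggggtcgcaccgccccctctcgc
They are 75.6% G and C with 25 CpG.

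CEBPD (gene 1052, chr8:47736913-47738164, minus strand) had its main control peak at chr8:47731303-47739333, with 8031 bp and a fold of 9.65, number 356. After treatment 57.7% of it was covered. The treated peak over the 5′ end, chr8:47735225-47739173, had a fold of 7.35 and was number 191, and the whole gene body of 1252 bp was covered in both libraries. CEBPD kept 69.7% of the control cover within 5 kb of its 5′ end and 19.1% over 100 kb. It was the member with the most treated peaks outside control cover, 12 of 50 over 100 kb. The share of all treated peaks that lie outside control cover was not computed. Treated covered length in the 100 kb window was 30.0% of control, and 19.1% was kept. The window has to be read with its chromosome 8, where these values were 39.6 and 19.3%, against 13.1 and 9.71% over the whole genome. What the chromosome contributes to the CEBPD values was not tested.

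CEBPE (gene 1053, chr14:23117306-23119255, minus strand), the factor of late granulocyte maturation, had the weakest promoter peak of the CEBP genes. The control peak at chr14:23113338-23120723, 7386 bp long, had a fold of 4.89 and was number 9341 in its list. After treatment 4 short peaks covered 35.7% of it, the strongest with a fold of 4.48. With a fold of at least 4 asked of both lists CEBPE kept 2.25%, and with a −log10 q of at least 5 it had no control peak. Outside its promoter CEBPE kept 2.56% of 6397 bp upstream and 7.76% of 19130 bp downstream. The neighbours PSMB5, PSMB11, CDH24, ACIN1, C14orf119, CIROP, SLC7A8 and RNF212B lie in this window.

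The 250 bases before the CEBPE transcript start (chr14:23119256-23119505, minus strand, RefSeq, GRCh38.p14) were covered throughout in control and over 87 bases after treatment. They are shown for the contrast with CEBPA, with a match to the SPI1 core letters GAGGAA in capitals. This contrast rests on a weak peak, since the 87 bases lie in chr14:23118496-23119342, whose fold of 3.46 is the lowest of the SNDX-50469 list.
CEBPE promoter: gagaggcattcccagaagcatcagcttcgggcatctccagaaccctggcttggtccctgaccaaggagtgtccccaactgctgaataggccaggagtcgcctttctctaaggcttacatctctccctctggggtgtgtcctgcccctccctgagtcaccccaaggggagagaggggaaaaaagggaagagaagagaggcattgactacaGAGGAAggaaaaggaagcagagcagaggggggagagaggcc
They are 57.2% G and C with 2 CpG, against a median of 21 CpG over all RefSeq promoter windows, and 27.9% of the windows hold GAGGAA on either strand.

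**Figure D4:**
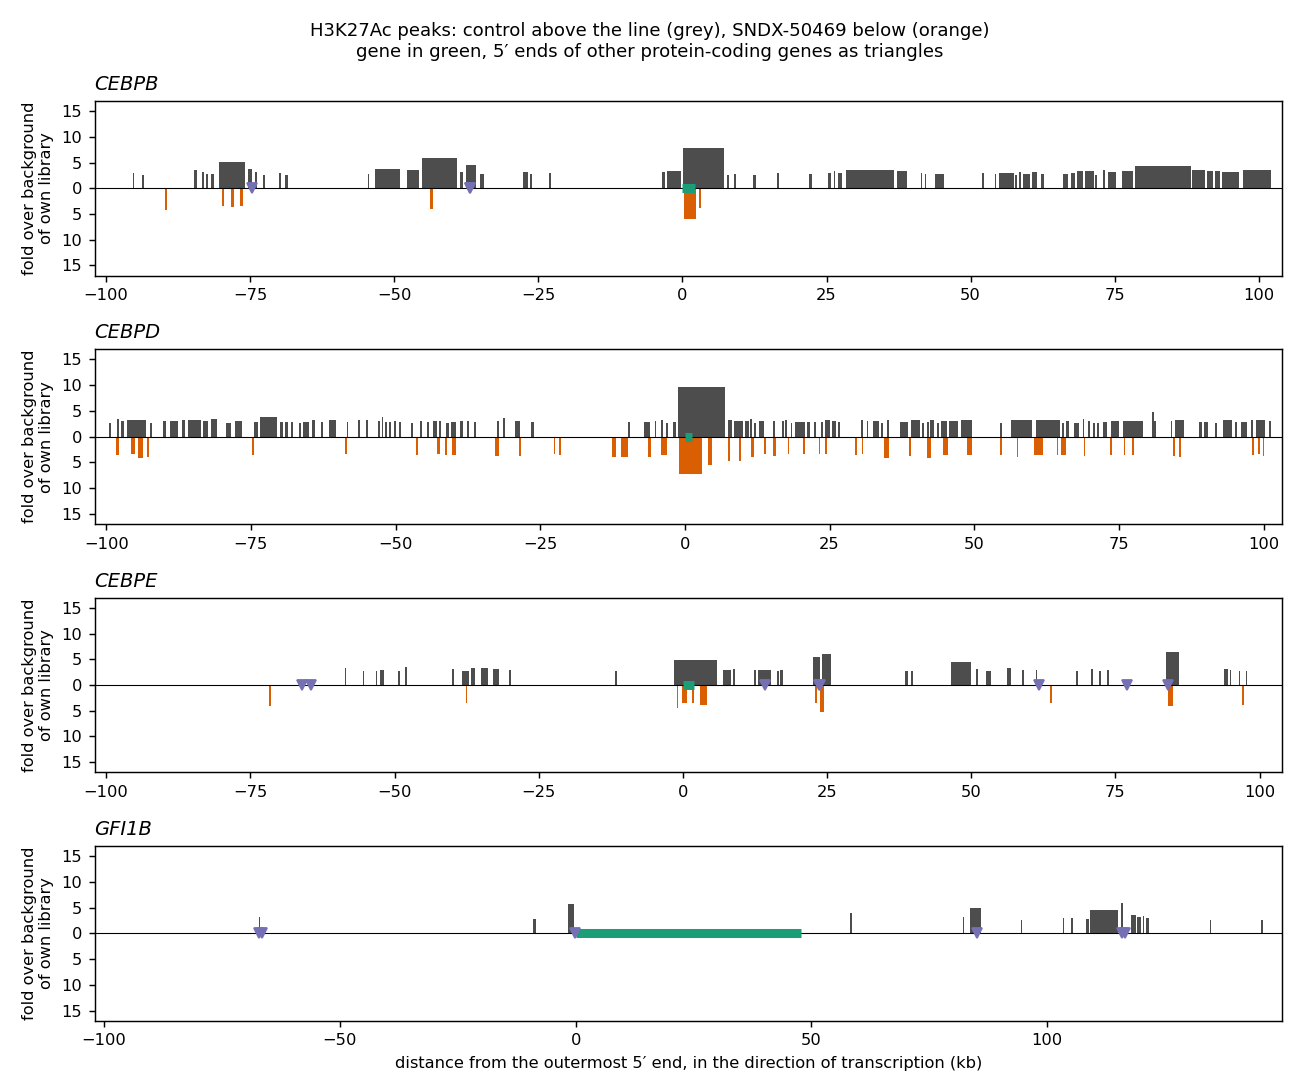
H3K27Ac peaks within 100 kb of CEBPB, CEBPD, CEBPE and GFI1B, by distance from the outermost 5′ end in the direction of transcription (kb), with the height as fold over the background of its own library, control upwards in grey and SNDX-50469 downwards in orange. The gene is a green bar and other protein-coding 5′ ends are triangles. Orange peaks remain over the CEBPB and CEBPD promoters, are short at CEBPE and are absent around GFI1B.

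SPI1 (gene 6688, chr11:47354860-47378547, minus strand) had the strongest distal peak of all 8 genes. In control this was chr11:47385497-47396606, 11110 bp long and at -18.1 to -6.95 kb from the 5′ end, with a fold of 15.7, number 11 of 245875 peaks. After treatment 85.2% of it was covered by a single peak, chr11:47387143-47396632, with a fold of 9.98, number 24 of 54061. Both libraries thus ranked this element among their strongest peaks, within the highest 0.0444% of the SNDX-50469 list. The peak over the 5′ end, chr11:47373737-47381194, was number 189 in control with a fold of 10.6, and 66.6% of it was covered after treatment, the strongest piece being number 750. Inside the gene, the control peak chr11:47355871-47360856, number 548, was covered over 69.3% and chr11:47361167-47362535, number 1598, over 85.5%.

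By region, SPI1 kept 57.5% of 9411 bp within 5 kb of the 5′ end, 36.5% of 13833 bp in the rest of the body, 39.7% of 39116 bp upstream and 12.8% of 26104 bp downstream. Over 100 kb it went from 64 peaks and 88464 bp to 22 peaks and 29899 bp and kept 33.1%, the highest of the 8 genes at this range, next to 31.4% for CEBPA. Positions over 5 kb from any protein-coding 5′ end kept 34.6% at SPI1, against 7.43% over the genome. With a −log10 q of at least 5 asked of both lists SPI1 with 5 kb kept 36.5%, where CEBPA kept none. NR1H3, MADD, MYBPC3, SLC39A13, PSMC3, RAPSN and CELF1 are its neighbours.

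GFI1 (gene 2672, chr1:92473043-92486925, minus strand), the repressor of granulocyte progenitors, was covered from end to end in control by a peak of 17480 bp, chr1:92472502-92489981, with a fold of 10.0, number 268. After treatment 59.3% of it was covered, the strongest piece being chr1:92481279-92488664 over the 5′ end, with a fold of 6.85, number 311. GFI1 kept 72.0% of 9684 bp within 5 kb of its 5′ end, the highest promoter value among the 8 genes. A further control peak 18.1 to 33.8 kb downstream of the 5′ end, chr1:92453087-92468807, was number 1902. It was covered over 58.5% after treatment, and the treated peak inside it, chr1:92456647-92463334, had a fold of 7.44 and was number 174. In the SNDX-50469 list this downstream peak therefore stood above the peak over the GFI1 5′ end, while in control the order was the other way round. The upstream peak chr1:92508619-92523746 was covered over 20.4%. Over 100 kb GFI1 went from 71 peaks and 133568 bp to 16 peaks and 25009 bp and kept 18.4%, with RPAP2 and EVI5 as neighbours.

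All 3 annotated GFI1 promoter windows of 300 bases lay wholly inside peaks of both libraries. Of all 22199 windows, 49.3% shared at least 1 bp with a control peak and 21.9% with a treated peak. The 250 bases before the outermost start (chr1:92486926-92487175, minus strand, RefSeq, GRCh38.p14) are shown as a promoter covered throughout in both. The stretch of 28 bases (chr1:92486224-92486251, minus strand) lies before an internal start, was also covered in both, and is shown because it holds in capitals the CEBP palindrome TTGCGCAA.
GFI1 promoter: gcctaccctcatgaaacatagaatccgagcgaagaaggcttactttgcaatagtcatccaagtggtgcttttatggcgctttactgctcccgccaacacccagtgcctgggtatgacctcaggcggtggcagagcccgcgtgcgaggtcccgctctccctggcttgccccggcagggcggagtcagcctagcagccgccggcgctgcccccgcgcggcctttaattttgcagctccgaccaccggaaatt
GFI1 internal promoter: gcctggccacTTGCGCAAaggagcgcgc
The palindrome is in 45 of 22199 promoter windows, or 0.203%. It is the only match among the windows of the 6 genes that the promoter table holds. TTGCGCAA is also a case of the looser letters TTNNGNAA, which 31.4% of the windows hold on either strand.

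GFI1B (gene 8328, chr9:132945531-132993434, plus strand), the erythroid and megakaryocytic relative, had no peak over its body in either library. The only control peak in its window with 5 kb was chr9:132944001-132945147, which ends at -0.384 kb from the 5′ end, had a fold of 5.65 and was number 5501. The 5′ end of TSC1, transcribed the other way, lies at -0.153 kb, between this peak and GFI1B. After treatment no peak was listed within 100 kb, where control had 18 peaks over 15326 bp. A share of 0 of 18 peaks allows up to 17.6% by the Wilson interval. Both annotated GFI1B promoter windows were free of peaks in either library, where 49.3% of all promoter windows had a control peak and 21.9% a treated peak.

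At each of the 7 genes with kept cover, the share kept within 5 kb of the 5′ end was higher than that upstream and that downstream. How many of all genes have this order was not computed. The genome also kept more within 5 kb of protein-coding 5′ ends, 19.6%, than further away, 7.43%. This order turned at CEBPA with a −log10 q of at least 5 in both lists, where 0% was kept near the 5′ end and 28.0% downstream, and with the trimmed control list, where 59.8% and 72.2% were kept. With a fold of at least 4 it held at 5 of 7 genes and turned at CEBPE and SPI1. CEBPE kept 166 of 6469 bp near the 5′ end and 1337 of 9474 bp downstream, 2.57% against 14.1%. SPI1 kept 3273 of 9411 bp near the 5′ end and 2517 of 6806 bp downstream, a slightly higher share. As deposited, the highest shares outside this range were those downstream of CEBPA and upstream of SPI1. Within 5 kb of the 5′ ends 61041 bp were covered in control, and 54.1% was kept, against 19.6% around the 5′ ends of all protein-coding genes. The median of the 8 genes there was 54.2%, and that of all genes with a control peak was 1.85%, with an upper quartile of 25.2%. These windows of the 8 genes were covered over 76.3% in control. Genes of like control cover were not compared at this range, so what cover adds to this gap was not tested. The order ran from GFI1 at 72.0%, CEBPD at 69.7%, CEBPA at 59.8%, SPI1 at 57.5% and CEBPG at 51.0% to CEBPE at 40.7%, CEBPB at 28.3% and GFI1B at 0%. With 1 library a condition no spread is known that would separate neighbours in this order.

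Over 100 kb the windows of the 8 genes, joined where they overlap, held 425 control peaks over 606375 bp and 146 treated peaks over 138703 bp, and 20.9% was kept. Here 75 of 425 control peaks were kept, or 17.6% (Wilson 95% interval 14.3 to 21.6%). Of the 146 treated peaks 21 lay outside control cover, and the share of all treated peaks that do so was not computed. Covered length was again lower at 8 of 8 genes, against 98.6% of the 18602 genes with a control peak at this range, and some was kept at 7 of 8, against 77.7%. The median kept share was 18.7% for the 8 genes and 6.76% for all genes. Away from every protein-coding 5′ end, 484992 bp around the 8 genes kept 17.4%, against 7.43% over the genome. What control cover adds to these differences was not tested. SPI1 with 34.6% and CEBPA with 28.1% led here, followed by GFI1 with 14.3% and CEBPD with 14.2%. CEBPG had 16.6%, but its window shares much of its kept cover with the CEBPA domain, and its own downstream side kept 722 of 31402 bp. CEBPB kept 1.01% and CEBPE 0.992%, and GFI1B kept none. With the control list trimmed to the length of the treated list this distal share was 54.1%, and with a fold of at least 4 in both lists 27.1%. The whole genome, 5′ ends included, also moved, from 9.71% as deposited to 38.9% and 14.1% in these settings.

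**Figure D5:**
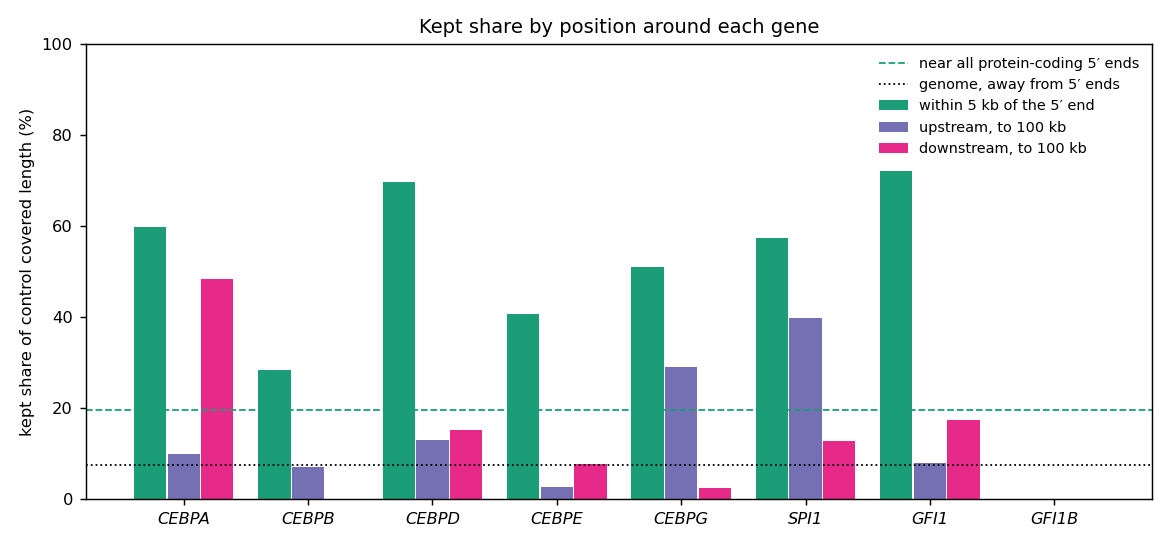
Kept share of the control covered length (%) within 5 kb of the 5′ end, upstream and downstream to 100 kb for each gene, with the values for all protein-coding 5′ ends (19.6%, dashed) and for the genome away from 5′ ends (7.43%, dotted) as lines. Promoter bars are highest at GFI1 and CEBPD, the downstream bar stands out at CEBPA and the upstream bar at SPI1.

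Peaks closer than 12.5 kb were also stitched and ranked by fold times length within a list, to see which of the genes lay in broad domains. These regions are built from peaks alone and are not super enhancers called on reads. In control 892 of 24668 regions stood above the point where the ranked curve reaches slope 1, and regions holding 6 of the 8 genes were among them, where 20.5% of all genes lay in such a region: CEBPA and CEBPG together at number 50, CEBPD at 56, GFI1 at 159, CEBPB at 363 and SPI1 at 366. In the SNDX-50469 list 372 of 18541 regions stood above, and 4 of the 8 genes lay in one of them, against 3.91% of all genes, with CEBPD at number 23, CEBPA at 39, SPI1 at 57 and GFI1 at 100. CEBPG, now in a region of its own of 29371 bp, was number 637, CEBPB number 2116 and CEBPE number 2809, all below the point. The shared control region of CEBPA and CEBPG had spanned 380571 bp with 108 peaks, and the treated CEBPA region spanned 91127 bp with 29 peaks. That of SPI1 spanned 139148 bp in control and 74695 bp after treatment. The CEBPD region lay on the chromosome with the high treated cover described above.

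Genes that act with these factors were followed in the same way, over the gene with 5 kb. Covered length was lower at every gene with a control peak in the 4 lists, as at nearly all genes. The counts of genes that kept cover are to be read against the 55.2% of all genes with a control peak. Of 11 partners and regulators of CEBP proteins, 8 kept control cover, with a median of 11.1%. TRIB1, a pseudokinase that directs CEBPA to degradation and lies on chromosome 8, kept 51.9% of 17729 bp, TRIB3 kept 19.5% of 14890 bp, and NFIL3, another zipper factor, kept 1.23% of 15986 bp. Of 10 partners of SPI1 and its ETS relatives, 6 kept cover, near the share of all genes, with a median of 3.63%. ETV6 kept 29.7% of 230716 bp, RUNX1, which binds beside PU.1 at myeloid genes, 12.4% of 212304 bp, and FLI1 8.16% of 50118 bp. Of the 10 corepressors of GFI1 and GFI1B, 9 kept cover, with a median of 15.8%, among them GSE1 with 28.1% of 137724 bp, RCOR1, a scaffold of the LSD1 complex, with 16.1% of 17231 bp and PHF21A with 10.4% of 20963 bp. Each of these medians was lower than the 37.2% of the 8 genes and higher than the 2.37% of all genes. The lists were not matched for control cover. Over all genes the median was 0% at 0 to 25% control cover and 23.4% at 75 to 100%.

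Of 17 target genes of CEBP proteins and SPI1, 16 had a control peak, the exception being CSF2RA, against 78% of all genes. Of these 16, 10 kept cover, near the 55.2% of all genes, with a median of 5.34%. The targets with the most control cover kept little: CSF1R, the M-CSF receptor, kept 6.36% of 52599 bp, IL6R kept 6.18% of 30770 bp, and ITGAM, the integrin CD11b, kept none of 32322 bp. Genes of granule proteins, named after their values were seen, spread widely. PRTN3 kept 94.5%, AZU1 87.3%, ELANE 70.9%, MPO 63.4% and CTSG 41.0%, whereas LYZ kept 4.49% and LTF none. PRTN3, AZU1 and ELANE all lie on chromosome 19, and whether their windows share peaks was not examined. Covered length was lower at all 16 targets with a control peak.

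The genes most like CEBPA, by the distance in percentage points between the covered parts of their windows over both libraries, were COMMD3-BMI1 at 3.53, TMSB4X at 3.63 and OR52W1 at 4.53. TMSB4X, for example, was covered over 100% in control and 65.6% after treatment, where CEBPA was covered over 100 and 68.1%. The genes most like SPI1 were ARHGDIA at 0.879, H2BC6 at 2.50 and ZBTB7A at 2.97, ARHGDIA being covered over 84.6 and 33.0%, and SPI1 over 83.8 and 32.7%. This likeness rests on 2 libraries and only on the covered length.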

How the data were processed

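MOLM13 cells were profiled for H3K27Ac by ChIPmentation, with 1 library of control cells and 1 of cells given 500 nM SNDX-50469 for 16 h. Groups were taken from the sample labels, and 2 input libraries had no list analysed here. The submitters' processing notes name Trim Galore 0.6.5, Bowtie2 2.3.4.2, Picard 2.9.0 and MACS2 2.1.2 with GRCh38, whereas the supplementary methods name TopHat2 and hg38. Whether an input entered peak calling is not given in the sources used here. Broad peaks were called by the authors in each library separately and deposited as 1 list each. Each deposited peak carries a ratio (fold over background averaged over the peak), a −log10 p and a −log10 q, and a score made from the −log10 q, which was not used. These values are relative to the background of their own library, so positions were compared between lists and heights only ranked within a list.

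Positions were joined with the coordinates of 20037 protein-coding RefSeq genes (GRCh38.p14, the build of the lists), using Python 3.11.15, numpy 2.4.6, pandas 2.3.3, scipy 1.17.1 and matplotlib 3.10.9. The GENCODE lift37 annotation gave the strand of SPI1 and CEBPD, matched on symbol, and none of its coordinates were used. In all 19675 genes had a strand. A control peak was kept when at least 1 bp was shared. Interval arithmetic was tested on 20 simulated lists with 4000 windows, with 0 mismatches. Promoter sequences came from the RefSeq table, which held windows of 6 of the 8 genes. The read depth is unknown, no test was made, and Wilson 95% intervals cover counting error only. Members, lists and settings were chosen with earlier results of these data known. For each other list the genes named were the 3 with the most control covered length; all 8 genes were named. Of the targets, 7 genes of granule proteins were named after their values were seen, and 1 marker list is not reported here. Alternatives were a −log10 q of at least 5, a fold of at least 4, a common −log10 p cutoff, a trimmed control list, other windows and single genes left out. The positions around each gene under the list settings were added after seeing the data.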

Additional observations from a re-analysis of the deposited data

How the results depend on the processing

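The kept share of the 8 genes with 5 kb, 42.2% as reported, was 32.8% with a −log10 q of at least 5 in both lists, 46.3% with the common −log10 p cutoff, 60.2% with the control list trimmed to the treated covered length and 43.1% with a fold of at least 4. It was 54.0% over gene bodies, 29.1% with 50 kb and 37.2% as the median of the genes. In the same order of list settings, the share with 100 kb, 20.9% as reported, was 23.2, 29.0, 56.2 and 29.3%, with a median of 18.7%. The share around the 5′ ends, 54.1% as reported, was 43.5, 58.3, 67.9 and 50.6%, and the share away from 5′ ends, 17.4% as reported, was 22.1, 25.0, 54.1 and 27.1%. In the same order the whole genome, 9.71% as deposited, kept 6.47, 15.5, 38.9 and 14.1%. Without CEBPA the 4 shares of the genes, with 5 kb, with 100 kb, around and away from 5′ ends, were 38.7, 18.9, 52.9 and 14.4%. Without SPI1 they were 43.3, 18.8, 53.5 and 15.4%, without CEBPD 40.6, 21.2, 51.9 and 18.0%, without CEBPG 44.2, 21.3, 54.6 and 17.9%, and without GFI1B 42.6, 21.4, 55.1 and 17.6%. Leaving out CEBPA, SPI1 or GFI1B was chosen after seeing the data. The share of control peaks kept, 58.3% as reported, was 100% with the trimmed control list, 25.8% with 50 kb and 25% when 50% of a control peak had to be covered. The count of genes with lower cover was 6 to 8 and that of genes with a peak after treatment 5 to 7 over the settings. The first count was under 8 where a gene was left out, where CEBPE or GFI1B had no control peak, and over gene bodies, where CEBPD was wholly covered in both libraries. No value was obtained for CEBPE with the stricter q or the trimmed list, or for GFI1B with the trimmed list or over its body, for want of a control peak. The causes were not tested. No paired analysis was possible because there was only 1 library of each condition and no test was run. Peaks below the cutoff of a list are not seen, and the cutoff of the SNDX-50469 list was the higher. Read totals are not in the lists, so what depth adds to these shares was not tested.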
